A study of Mus musculus with 36 samples.

Results

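The olfactory receptor genes of mouse chromosome 9 were examined for the binding of CTCF and MBD3 in embryonic stem cells. The members are all protein-coding genes on this chromosome whose symbol is Olfr followed by a number (or Or in the newer naming) in the RefSeq annotation of GRCm38.p6, the assembly of mm10. The rule gave 130 of the 1201 coding genes of chromosome 9, and of 21887 coding genes in all. One of them, Olfr911-ps1, is annotated as coding in spite of its name. The rule uses names and positions only, and no peak was used to choose a gene. Earlier results of these data were known when the members were chosen.

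Chromatin bound by CTCF or by MBD3 was immunoprecipitated and sequenced (ChIP-seq) at days 0, 2, 4 and 6, beside input chromatin as the third kind of library. The 36 samples form 12 groups of 3. All are mouse embryonic stem cells, called WT in the names of the peak lists, grown in medium with KnockOut Serum Replacement and leukaemia inhibitory factor on irradiated mouse embryonic fibroblasts. The labels do not say what separates the days, or whether the feeder cells were removed. The deposited peak lists pool the 3 replicates of an antibody and day. Each of the 8 lists is therefore 1 value without a spread between replicates, and differences between days are given without a test. The lists hold 28137 to 47414 peaks for CTCF and 1991 to 10875 for MBD3 on chromosomes 1 to 19, X and Y, with the shortest list of each antibody on day 2.

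Olfactory receptors are G protein-coupled receptors that detect odorants in the sensory neurons of the nose. Each neuron expresses 1 receptor allele from a very large gene family, and the rest of the family is silent in that neuron. The genes sit in clusters, and most have their coding sequence in 1 exon. CTCF is a zinc finger protein that binds a long DNA motif and stops loop extrusion by cohesin at the borders of chromatin domains. MBD3 belongs to NuRD, a complex that shifts nucleosomes and removes acetyl groups from histones.

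The members lay in 2 clusters. The first ran from Olfr24 to Olfr18 (18754692 to 20336094, 1.58 Mb) and held 35 members. The second ran from Olfr160 to Olfr986 (37711348 to 40188094, 2.48 Mb) and held 95. Other coding genes inside the clusters were 4 in number, the zinc finger gene Zfp317 in the first and Vwa5a, AW551984 and Tmem225 in the second. They divide the members into 6 uninterrupted runs of 19, 16, 40, 29, 25 and 1 genes. The annotated gene of a member is short, with a median of 948 bp (918 to 23752 bp), against 23235 bp for the other 1071 coding genes of the chromosome. The lengths of 95 members (73.1%) are whole multiples of 3, so most of these models give the coding length, and the true transcription start of such a gene can lie farther upstream.

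The sequences around the annotated starts of the members share a feature that the rule did not use and that belongs to the family as a whole. They are poor in CpG, the dinucleotide that carries DNA methylation, which was not measured here. RefSeq promoter windows of 300 bases around the annotated start were matched for 109 of the 130 members. Most member models start at the coding sequence, so these windows need not hold the true promoter. The part of this in the contrasts of CpG, GC and motif with other genes was not tested. They held a median of 1 CpG (0 to 8), and 39 held none (35.8%). The 914 other coding genes of chromosome 9 with such a window had a median of 18 CpG, and 22 of them held none (2.41%). The median GC content was 34.0% in members and 58.3% in the others. Olfactory receptor genes on other chromosomes were alike in this, with a median of 1 CpG, no CpG in 33.2% of 835 windows and a median GC content of 35.3%. The windows below show this contrast, in lower case with each CpG in capitals. Olfr24 opens the first cluster, and Olfr957 and Olfr148 are the members that lay closest to a CTCF peak. Zfp560 and Zfp202 are the zinc finger genes that follow the last member of the first and the second cluster, and both had CTCF at their start.
Olfr24, chr9:18755584-18755883, minus strand: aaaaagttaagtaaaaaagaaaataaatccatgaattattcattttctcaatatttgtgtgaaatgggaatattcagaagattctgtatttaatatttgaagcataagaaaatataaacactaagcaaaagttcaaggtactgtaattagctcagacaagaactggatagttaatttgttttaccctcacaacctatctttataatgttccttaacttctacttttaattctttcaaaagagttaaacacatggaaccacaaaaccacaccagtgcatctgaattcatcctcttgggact
Olfr957, chr9:39511669-39511968, minus strand: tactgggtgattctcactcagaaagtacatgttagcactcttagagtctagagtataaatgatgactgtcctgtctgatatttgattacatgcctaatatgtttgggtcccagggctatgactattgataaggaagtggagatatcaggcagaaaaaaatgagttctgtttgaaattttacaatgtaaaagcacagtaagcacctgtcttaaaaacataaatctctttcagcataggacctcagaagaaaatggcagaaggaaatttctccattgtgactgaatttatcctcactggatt
Olfr148, chr9:39613319-39613618, plus strand: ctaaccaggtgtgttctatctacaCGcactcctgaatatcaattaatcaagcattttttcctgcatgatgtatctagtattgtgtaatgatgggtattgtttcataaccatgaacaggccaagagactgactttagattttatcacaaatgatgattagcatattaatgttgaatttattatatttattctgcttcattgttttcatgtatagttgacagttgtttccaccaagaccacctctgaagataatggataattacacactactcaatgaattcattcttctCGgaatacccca
Zfp560, chr9:20385109-20385408, minus strand: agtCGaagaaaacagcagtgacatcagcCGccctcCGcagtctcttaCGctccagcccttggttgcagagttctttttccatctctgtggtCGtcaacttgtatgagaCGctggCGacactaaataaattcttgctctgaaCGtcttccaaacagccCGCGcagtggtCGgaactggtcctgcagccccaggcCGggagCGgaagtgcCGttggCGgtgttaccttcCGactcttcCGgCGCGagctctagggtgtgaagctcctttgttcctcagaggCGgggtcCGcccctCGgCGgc
Zfp202, chr9:40192066-40192365, plus strand: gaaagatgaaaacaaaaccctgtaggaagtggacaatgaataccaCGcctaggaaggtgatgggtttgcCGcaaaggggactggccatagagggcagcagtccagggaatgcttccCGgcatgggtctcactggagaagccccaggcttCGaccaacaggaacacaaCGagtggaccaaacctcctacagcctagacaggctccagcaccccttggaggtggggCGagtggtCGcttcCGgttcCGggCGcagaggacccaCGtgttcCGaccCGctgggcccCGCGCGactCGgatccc
The 3 members held 0, 0 and 2 CpG, and Zfp560 and Zfp202 held 23 and 17. CTCF peaks of all 4 days overlapped the Zfp560 window. The CTCF peaks of days 0 and 4 overlapped the end of the Zfp202 window. The 12-base core of the CTCF motif was searched on both strands, as a pattern with several positions open to any base. Most of its fixed bases are G or C, and the part of the GC content of the windows in the following shares was not tested. The pattern occurred in the windows of 1 of 109 members (0.917%, exact 95% interval 0.0232 to 5.01), of 116 of the 914 other chromosome 9 genes (12.7%) and of 1975 of 17492 coding genes of the genome (11.3%). Among olfactory receptor genes on other chromosomes it was in 6 of 835 windows (0.719%). The member was Olfr881, whose window is shown with the matched bases in capitals.
Olfr881, chr9:37992242-37992541, plus strand: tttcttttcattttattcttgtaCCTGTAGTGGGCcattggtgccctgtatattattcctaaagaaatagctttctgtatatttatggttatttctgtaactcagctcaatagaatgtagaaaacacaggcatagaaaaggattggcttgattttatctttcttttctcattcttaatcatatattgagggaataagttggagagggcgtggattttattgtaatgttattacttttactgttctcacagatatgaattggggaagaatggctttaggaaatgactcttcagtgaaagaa
No CTCF peak overlapped the Olfr881 gene or its surrounding 1 kb on any day. A match of these letters is not a binding site, and a window without them can still hold one.

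No member had a peak of either antibody in the gene or within 1 kb of it, on any day. The sources used here do not say how fragments that align to several places were treated. Dropping such fragments could leave similar sequences without peaks, here and in the results below, and this was not tested. A missing peak is therefore not proof of missing binding. CTCF was at 0 of 130 members in each of its lists, which allows a share of up to 2.31% by counting error. Among the other 1071 coding genes of chromosome 9, the CTCF share was 64%, 45.7%, 53.5% and 55% across the 4 days in order. MBD3 was likewise at 0 of 130 members on each day. The same windows of the other genes held MBD3 in 23.2%, 5.14%, 23.1% and 23.7% on days 0, 2, 4 and 6. The 48 olfactory receptor pseudogenes of the chromosome had 0 peaks of either antibody as well, which allows up to 6.25%. The other coding genes inside the clusters, Zfp317, Vwa5a, AW551984 and Tmem225, also had no peak within 1 kb in any list.

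Length and promoter CpG differ between members and other genes, and their part in this result was not tested beyond the following values. Among the other coding genes no longer than the longest member (543 genes), CTCF was at 47.7%, 28.7%, 36.3% and 37.8% on days 0, 2, 4 and 6. Among the 171 genes that were also no richer in promoter CpG than the richest member, a limit set after the data were seen, CTCF was at 32.2%, 24.0%, 26.9% and 28.1%. These limits are the maxima of the members and do not match the groups: the 171 genes had a median length of 8563 bp and a median of 3 promoter CpG, beside 948 bp and 1 in members. For MBD3 the shares of these 171 genes were 11.7%, 1.17%, 12.3% and 9.94%. On day 2 only 2 of the 171 carried MBD3, so the absence of MBD3 from members is not distinguishable there at this number of genes.

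**Figure D1:**
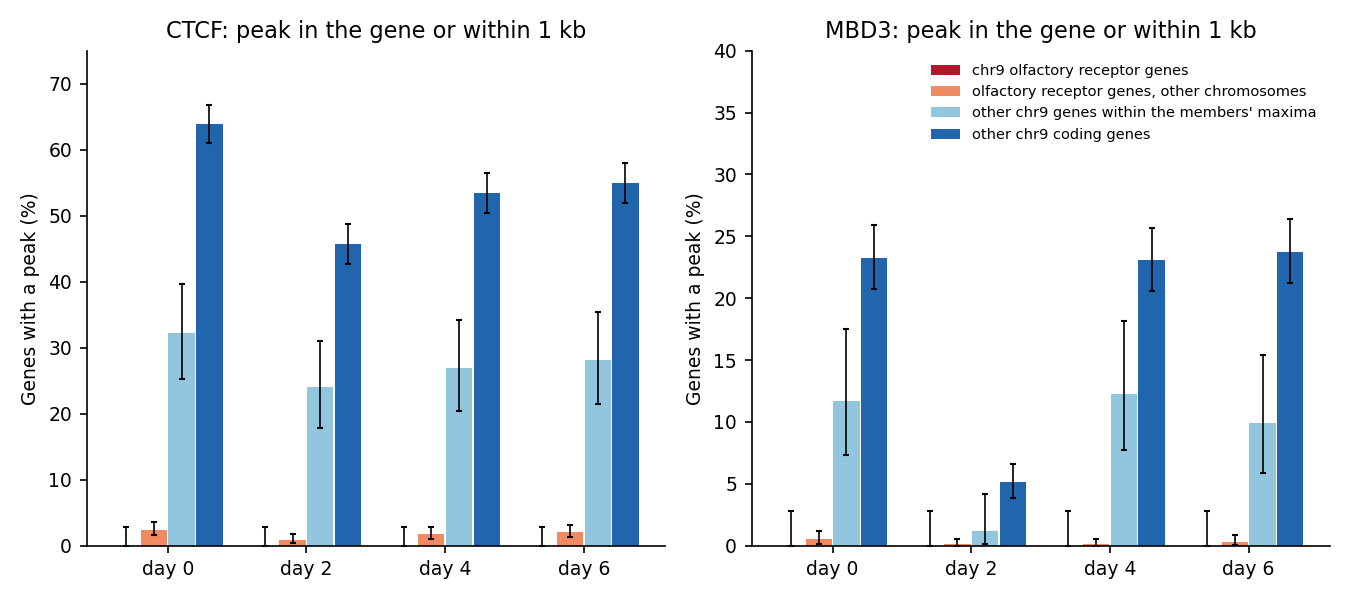
Share of genes (%) with a CTCF peak (left) or an MBD3 peak (right) in the gene or within 1 kb, by day. Bars are the 130 chromosome 9 olfactory receptor genes, the 980 such genes on other chromosomes, the 171 other chromosome 9 genes within the members' maxima of length and promoter CpG, and all 1071 other chromosome 9 coding genes, and lines are exact 95% binomial intervals for counting error only. The bars of the chromosome 9 members are at 0 on every day.

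Olfactory receptor genes on other chromosomes were also rarely occupied. CTCF was at 24, 9, 17 and 20 of 980 such genes on days 0, 2, 4 and 6 (2.45%, 0.918%, 1.73% and 2.04%), and MBD3 at 5, 1, 1 and 3. The exact interval of the chromosome 9 share, 0 to 2.80%, includes each of these shares. The simpler limit of 3 counts used above, 2.31%, lies below the day 0 CTCF share of 2.45% and above the other shares. These limits for the same count of 0 disagree on day 0 only, so a difference is not shown. The difference itself was not tested.

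Peaks were scarce in the whole of the clusters and not in the genes alone. The 124 gaps between neighbouring members covered 3.50 Mb and held 11, 4, 7 and 7 CTCF peaks on days 0, 2, 4 and 6. That is 3.14, 1.14, 2.00 and 2.00 peaks per Mb. The 958 gaps between neighbouring other coding genes of the chromosome (61.7 Mb) held 21.1, 13.3, 17.3 and 17.8 CTCF peaks per Mb, so the density there was 6.71, 11.6, 8.63 and 8.88 times as high. The day 0 ratio was 11.9 both at a -log10 q of 10 or more and with lists of equal length, where only 5 and 4 peaks lay between members. MBD3 had 2, 0, 0 and 2 peaks in the gaps between members, or 0.571 per Mb on days 0 and 6. A count of 0 in 3.50 Mb allows up to 0.857 per Mb. Between other genes MBD3 had 4.89, 0.777, 4.37 and 5.85 peaks per Mb, so on day 2 the density between members is not distinguishable from that between other genes. The members and their 1 kb windows cover 0.537 Mb, in which the gap densities would give 1.69, 0.614, 1.07 and 1.07 CTCF peaks on the respective days. The 0 peaks found there are therefore no evidence that the genes are emptier than the DNA between them.

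**Figure D2:**
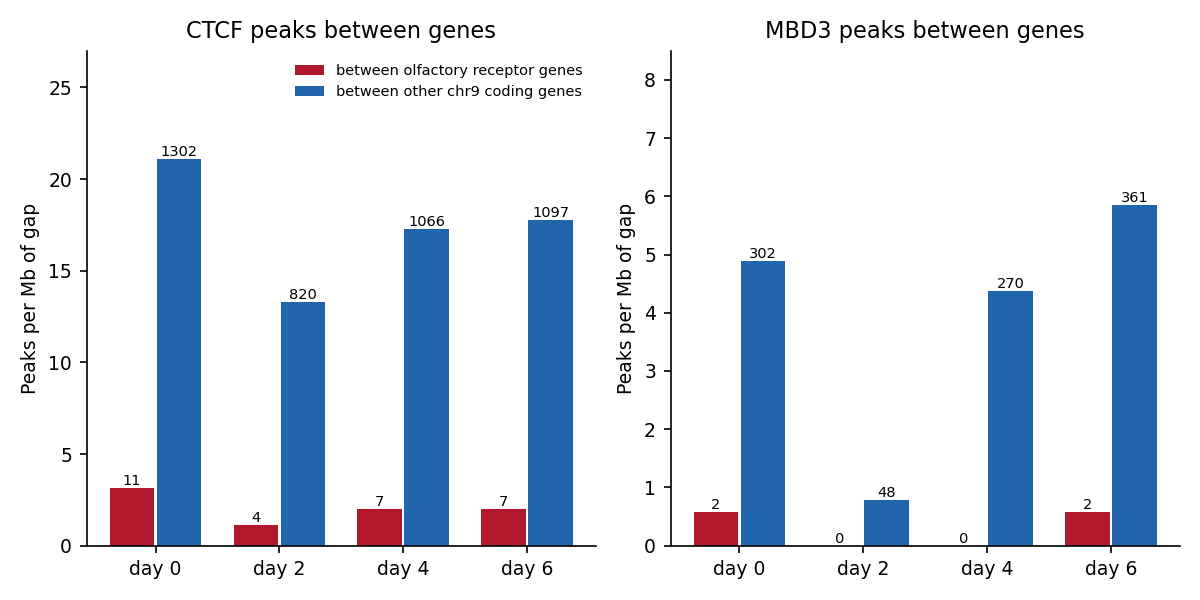
CTCF (left) and MBD3 (right) peaks per Mb in the 124 gaps between neighbouring olfactory receptor genes and in the 958 gaps between neighbouring other coding genes of chromosome 9, by day, with the number of peaks above each bar. There is 1 pooled list per bar, so no error bar is drawn, and between 0 and 11 peaks lie between members.

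Peaks were few in every run, and differences between runs were not tested. The run from Olfr160 to Olfr919 (40 members, 0.987 Mb) had the most CTCF peaks, with 4, 1, 3 and 4 on days 0, 2, 4 and 6. Olfr24 to Olfr855 (19 members, 0.831 Mb) had 3, 1, 2 and 1, and Olfr920 to Olfr959 (29 members, 0.820 Mb) had 3, 2, 2 and 2. Olfr148 to Olfr985 (25 members, 0.514 Mb) had 1 CTCF peak on day 0 and 0 later. Olfr857 to Olfr18 (16 members, 0.623 Mb) had 0 peaks of either antibody in every list, which allows up to 4.81 per Mb. That limit is above the 4.05 per Mb of the densest run on days 0 and 6, so these counts show no difference between runs.

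**Figure D3:**
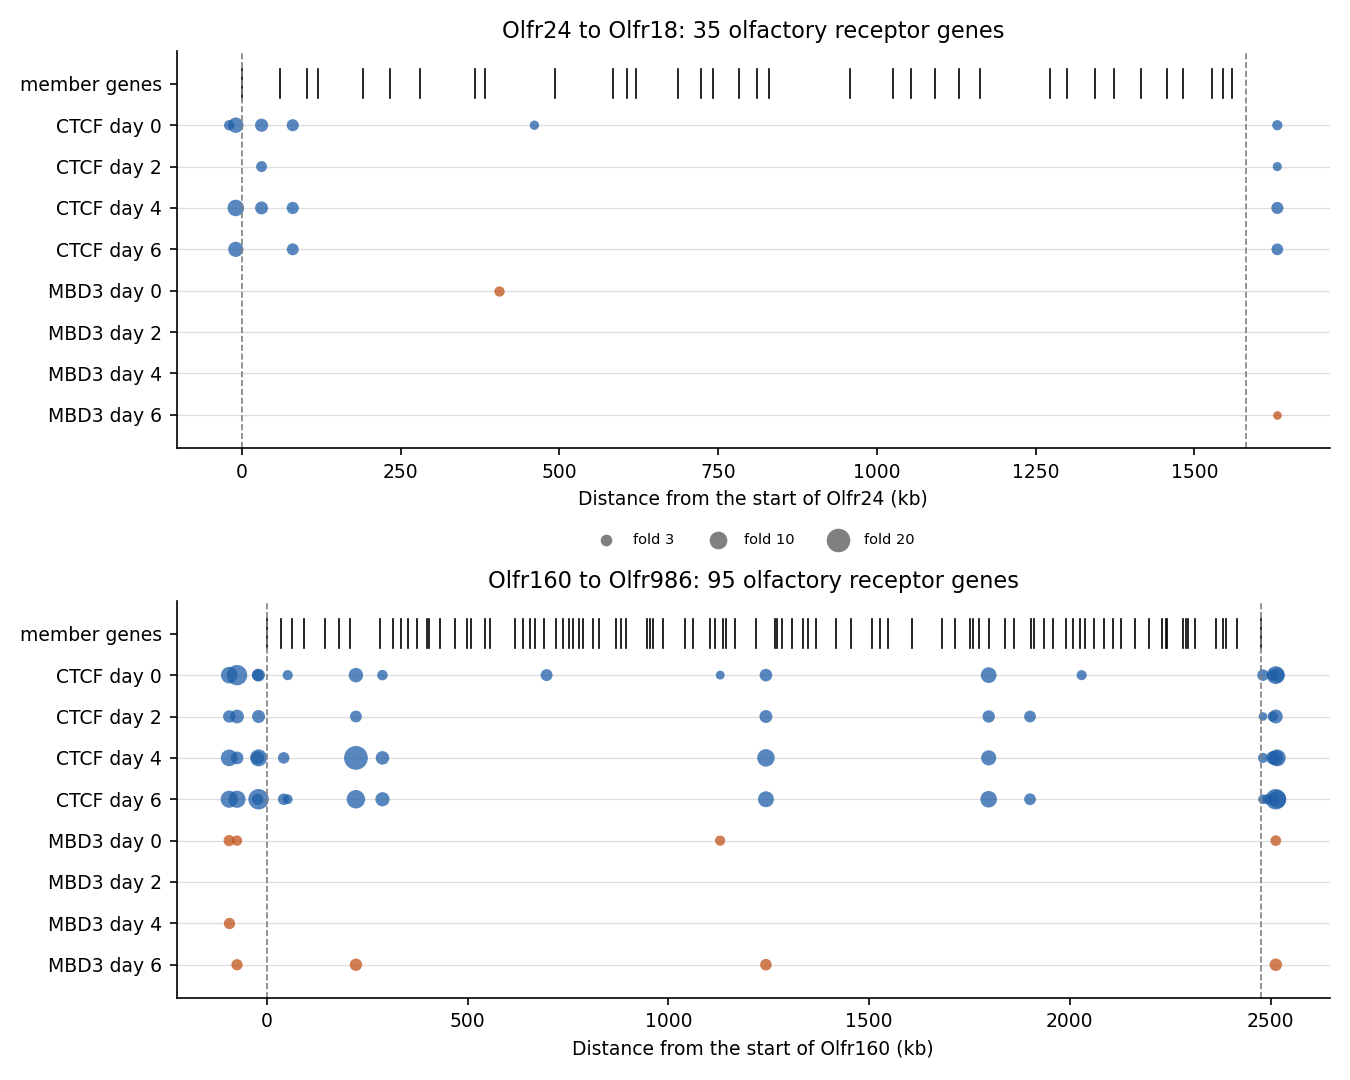
Positions of the members and peaks along the first cluster (top, 35 genes) and the second (bottom, 95 genes), as distance in kb from the start of the first member, with 100 kb on either side. Each vertical tick is the start of a member, each dot is a peak of the named antibody and day with its area growing with the authors' fold enrichment, and dashed lines mark the cluster ends. Each cluster has CTCF peaks on both sides and long stretches without any inside. The peaks on both sides were not tested against the density of the chromosome.

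The peaks between members merged into 12 CTCF sites, and 3 of them (25%, exact 95% interval 5.49 to 57.2) were found on all 4 days. In the rest of chromosome 9, 1454 of 2930 sites (49.6%) were found on all 4 days. That share lies inside the interval of the 12 sites, so a difference is not shown. At a -log10 q of 10 or more, and with lists of equal length, 6 sites were left between members and 3 of them (50%) were found on all 4 days, beside 55.5% and 62.3% in the rest of the chromosome. The 3 constant sites were all in the second cluster. Fold enrichment below is the authors' ratio of fragments to the expected background at the summit, with the same constant added to both. Dividing the fragments printed below by their background therefore gives a higher value than the fold. It depends on the background of each list and ranks peaks within a list. Fragment numbers and the background expected at a summit were worked back from the fold and p in the authors' deposited table.

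The site between Olfr44 and Olfr957 had the highest day 0 fold of the 12. It lay 1415 bp from Olfr957, at 39509015 to 39509367, and its CTCF folds were 10.2, 5.85, 9.38 and 11.4 on days 0, 2, 4 and 6. These rest on 46, 22, 51 and 55 fragments over an expected 3.61, 2.93, 4.55 and 3.90. It exceeded 74.0%, 57.2%, 56.5% and 66.8% of the peaks of the respective lists, so it ranked above the middle on every day. MBD3 had no peak there.

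The site between Olfr878 and Olfr881 held the highest fold of any member site. It lay at 37932551 to 37932898, 12938 bp after Olfr878, with CTCF folds of 8.49, 5.27, 24.9 and 14.5. The fragments were 54, 33, 71 and 70 and the expected background 5.48, 5.45, 1.89 and 3.90. The day 4 fold therefore goes with a lower expected background, while the fragments of days 4 and 6 differed by 1. The day 4 peak exceeded 99.2% of its list and the day 0 peak 63.9%. MBD3 had a peak inside this site on day 6 alone, with a fold of 5.90 from 23 fragments over an expected 3.07.

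The third constant site lay between Olfr930 and Olfr933, at 38954081 to 38954464, 22981 bp from Olfr930 and 21213 bp from Olfr933. Its CTCF folds were 6.14, 6.47, 12.8 and 10.5, from 50, 26, 41 and 34 fragments. The expected background was 7.30 on day 0 and 3.18, 2.27 and 2.34 later. Fragments were thus most numerous on day 0, where the fold was lowest. MBD3 was again found on day 6 alone, with a fold of 5.00 from 12 fragments. No site between members had MBD3 on more than 1 day.

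Another 3 sites had CTCF on 3 days. Between Olfr24 and Olfr828 (18785422 to 18785669) the folds were 6.77, 4.28 and 6.58 on days 0, 2 and 4, with no peak on day 6. Between Olfr828 and Olfr829 (18834545 to 18834779) they were 5.55, 5.63 and 5.34 on days 0, 4 and 6. Between Olfr881 and Olfr883 (37998695 to 37998921) they were 3.88, 7.26 and 8.09 on those days. Day 2 was thus the missing day at the latter pair of sites, and the day 2 list is the shortest of CTCF.

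The other 6 sites were found on fewer days, with folds of 2.43 to 5.35. Both sites between Olfr874 and Olfr875 were found on 2 days. The one at 37752600 to 37752852 had folds of 4.95 and 4.86 on days 4 and 6 and was the only site between members that was absent on day 0 and present on both later days. It rests on 13 and 14 fragments. The one at 37762648 to 37762868 had folds of 3.60 and 3.30 on days 0 and 6. The 4 sites of day 0 only lay between Olfr837 and Olfr843 (fold 2.85), between Olfr147 and Olfr901 (5.35), between Olfr923 and Olfr924 (2.43) and between Olfr150 and Olfr967 (3.51). Their fragments numbered 10, 22, 14 and 13, and all 4 lay below the median fold of the day 0 list, 6.67. The day 0 list is the longest, and the part of its length in these sites was not tested.

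**Figure D4:**
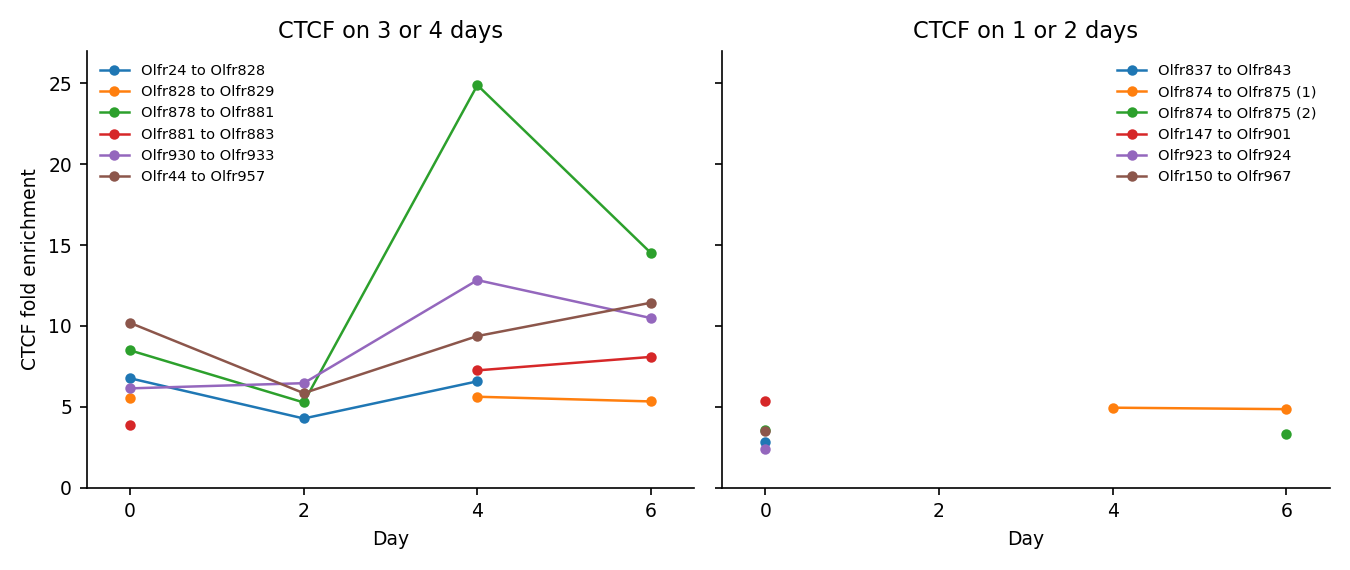
CTCF fold enrichment on days 0, 2, 4 and 6 at the 12 sites between members, named by the neighbouring genes, for sites found on 3 or 4 days (left) and on 1 or 2 days (right). A day without a point had no peak, lines join neighbouring days only, and each point is 1 pooled list without replicate error. The day 4 value of 24.9 between Olfr878 and Olfr881 is the highest.

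The median CTCF fold of the peaks in the runs was 5.35 (11 peaks), 5.56 (4), 7.26 (7) and 8.09 (7) on days 0, 2, 4 and 6, beside 6.67, 5.46, 8.56 and 8.91 in the whole lists. On days 0, 4 and 6 it was below and on day 2 above the median of its list, and no test was made. CTCF peaks in the runs carried an MBD3 peak in 1 of 11, 0 of 4, 0 of 7 and 2 of 7 cases. In the rest of chromosome 9 the shares were 18.7%, 4.00%, 20.4% and 26.2%, each inside the interval of the runs, so no difference is shown. The day 0 case, between Olfr923 and Olfr924, joins an MBD3 peak at 38839908 to 38840285 and a CTCF peak at 38840179 to 38840461 that overlap in part. MBD3 was without CTCF at 1 place between members, at 19160043 to 19160333 between Olfr837 and Olfr843. It was found on day 0 only with a fold of 3.75, from 32 fragments over an expected 7.80.

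Members were far from the CTCF peaks of the lists. The median distance from a member to the nearest CTCF peak was 98.4, 190.3, 197.4 and 182.0 kb on days 0, 2, 4 and 6. The lower day 0 value was lost in lists of equal length, where the medians were 210.1, 190.3, 205.1 and 210.03 kb, and at a -log10 q of 10 or more, where day 0 was at 205.1 kb. With all deposited peaks the median of the other coding genes of chromosome 9 was 0, 2.09, 0.181 and 0 kb, where 0 means a peak in the gene. More than 100 kb separated 63, 91, 92 and 87 of the 130 members from CTCF, and 15, 39, 26 and 24 of the 1071 other genes. The nearest member was Olfr148, 1297 bp from a site at 39612057 to 39612271 that lies between AW551984 and Olfr148 and was found on days 2 and 6 (folds 5.18 and 5.20). Olfr957 was at 1415 bp, Olfr150 at 2869 bp, Olfr147 at 3805 bp and Olfr986 at 4250 bp from their nearest peak of any day. These were the only members within 5 kb of CTCF. Neighbouring members share the same peaks, so the distances of members are not independent of each other. Median distances to MBD3 were 361.1, 1326, 818.5 and 332.5 kb for members and 18.5, 231.9, 23.4 and 17.3 kb for the other genes.

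**Figure D5:**
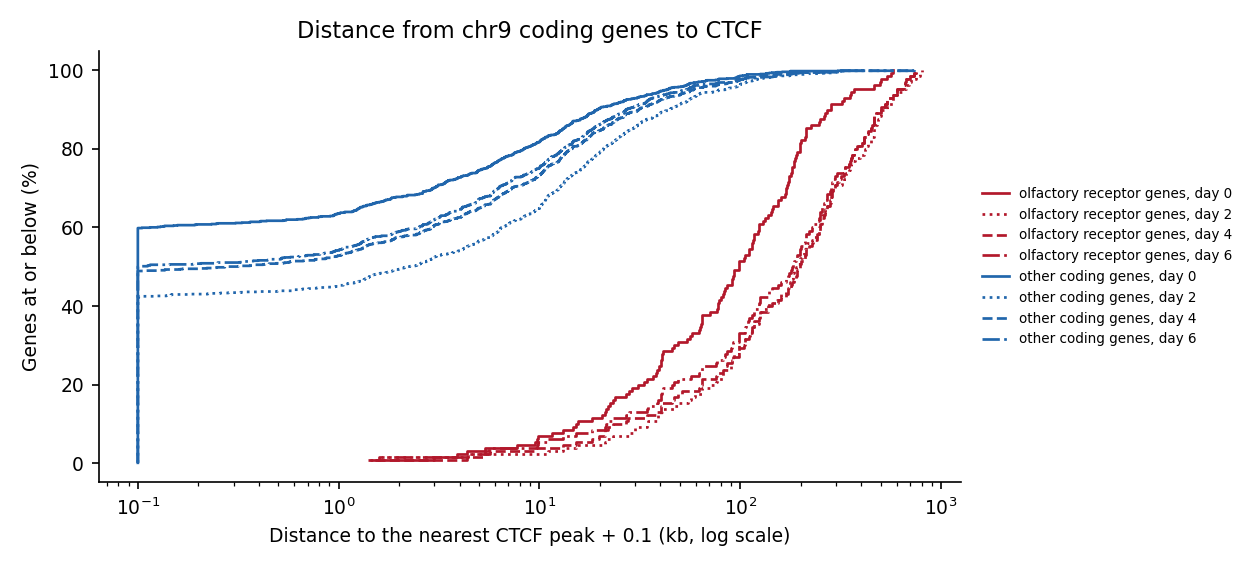
Cumulative share (%) of genes by distance to the nearest CTCF peak, in kb with 0.1 kb added on a log axis, for the 130 members and the 1071 other coding genes of chromosome 9 on each day. The curves of the members lie to the right on all 4 days. The day 0 list is the longest, and with lists of equal length the day 0 median of members was 210.1 kb.

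CTCF sites of any day cut the clusters into 14 stretches that hold all 130 members. The longest ran from 19215357 to 20385075, 1169.7 kb, and held 26 members from Olfr843 to Olfr18 together with Zfp317. It was the second longest of the 2941 stretches without CTCF on the chromosome, whose median length was 18.0 kb and whose maximum was 1208.8 kb. The next held 18 members from Olfr933 to Olfr44 in 554.6 kb and ranked 10 in length. Other long stretches held 19 members each, Olfr967 to Olfr986 in 451.3 kb and Olfr901 to Olfr923 in 432.2 kb, or 17 members, Olfr883 to Olfr147 in 408.7 kb. At the other end, Olfr24, Olfr828 and Olfr881 each stood alone between neighbouring CTCF sites, in 40.3, 48.9 and 65.8 kb. The longest stretch begins at the site between Olfr837 and Olfr843, found on day 0 only with a fold of 2.85 from 10 fragments. Further sites of day 0 only lie at an edge of the stretches of 451.3, 432.2 and 408.7 kb. Lengths and ranks without such sites were not worked out.

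CTCF was found on both sides of each cluster. Chromosome 9, from its first to its last coding gene, held 21.8, 13.0, 17.2 and 17.6 CTCF peaks per Mb on days 0, 2, 4 and 6. The flanks were not tested against that density, so these sites are not shown to mark cluster borders. Before the first cluster a site 9557 bp from Olfr24 (18744767 to 18745134) had folds of 9.77, 11.4 and 9.40 on days 0, 4 and 6. After it, the site at the start of Zfp560 (20385076 to 20385567) was present on all 4 days with folds of 3.65, 2.66, 5.51 and 5.14, and MBD3 was there on day 6 with a fold of 2.24. Before the second cluster a site 21005 bp from Olfr160 (37690007 to 37690342) had folds of 6.29, 6.61, 12.2 and 18.1 on days 0, 2, 4 and 6. After it, CTCF at the start of Zfp202, 4250 bp from Olfr986, had folds of 4.99, 2.25, 3.49 and 3.01. The site at 40224139 to 40224669 beyond Zfp202 had CTCF folds of 13.5, 7.79, 9.59 and 18.1 and carried MBD3 on days 0 and 6 (4.08 and 6.03). Siae, a sialic acid acetylesterase gene before the second cluster, held 2 sites with CTCF on every day and MBD3 on 2 days each. Their day 0 CTCF folds were 11.5 (37616800 to 37617194) and 18.0 (37636147 to 37636717).

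Other genes of olfaction carried CTCF more often than receptor genes did. Of a list of 24, with 11 for signalling, 3 for receptor export and 10 for receptor choice and silencing, CTCF was in the gene or within 1 kb at 16, 13, 15 and 15 on days 0, 2, 4 and 6. The shares over all 21887 coding genes were 56.7%, 39.4%, 46.2% and 47.2%. The list was not tested, and its genes with CTCF were 6668 to 389997 bp long, far longer than most members. Gnal, the G protein alpha subunit of olfactory neurons, had highest CTCF folds of 11.6, 6.89, 20.2 and 9.83, and Adcy3, the adenylyl cyclase of the same pathway, 15.1, 3.26, 5.96 and 10.6. Ebf1, a transcription factor of olfactory neurons, had 16.3, 8.07, 17.5 and 14.2, and Kdm1a, a histone demethylase needed to start receptor expression, 15.8, 8.09, 11.4 and 13.0. MBD3 was at 9, 2, 7 and 9 of the 24, beside 21.7%, 4.92%, 20.2% and 21.0% of all coding genes. Kdm1a was the only gene of the list with MBD3 on all 4 days (folds 3.04, 1.89, 3.04 and 4.03). The olfactory channel subunits Cnga2 and Cnga4, the marker Omp and the receptor transporters Rtp1 and Rtp2 had no peak of either antibody. The same held for Gng13 of the signalling genes and for Lhx2 and Atf5 of the genes for receptor choice and silencing. Of these, Lhx2 is 30467 bp long.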

How the data were processed

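ChIP-seq of CTCF and MBD3 was deposited as 8 peak lists, 1 per antibody and day, and no list was used here for input. MACS2 2.1.2 and Bowtie2 2.3.4 are named in the submitters' processing notes, with the build mm10, beside SAMtools 1.9, FastQC 0.11.7 and bedtools 2.25.0. How fragments that align to several places were treated is not given in the sources used here. The authors deposited for each peak a fold enrichment (a ratio), the -log10 p and the -log10 q, a score (10 times the -log10 q) and a summit offset. The list names show that replicates 1 to 3 were pooled, so no p-value between days or replicates could be had. The labels do not say that replicates are separate cultures. The lowest -log10 q was 1.30 to 1.31.

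Rows with the same interval were counted as 1 peak with the summit of highest -log10 q. An occupied gene has at least 1 bp of a peak inside it or in the 1 kb on either side. Genes and promoters came from RefSeq (GRCm38.p6), without exons. Sites are peaks of several days merged at 1 bp. Shares have exact (Clopper-Pearson) 95% intervals, and a count of 0 was taken to allow 3 counts, both for counting error only, and neighbouring genes are not independent. The fold was read as the ratio of fragments to expected background with 1 added to each. A match of fragments and background to the deposited fold and p within 0.1% was found for 98.1% to 100% of the chromosome 9 peaks of a list. The lowest background shared by peaks of a list, the only measure of depth used here, was 2.87, 2.67, 1.83 and 1.87 fragments for CTCF and 1.51, 2.18, 1.93 and 1.41 for MBD3 on days 0, 2, 4 and 6. Code was tested on simulated data against bedtools 2.31.1. The work used scipy 1.17.1, pandas 2.3.3, matplotlib 3.10.9 and numpy 2.4.6 under Python 3.11.15.

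Members, lists and the motif were chosen with earlier results of these data known. The rule named every member with a peak within 1 kb (there was none), the ends of runs and the genes beside them, the strongest sites between members and those gained or with MBD3. The remaining sites, the members within 5 kb of CTCF, the promoters printed and the examples of the olfaction list were chosen after their values were seen. Alternatives tried were windows of 0 and 5 kb, a minimum -log10 q of 10, the strongest peaks of each day in equal number, summits alone, pseudogenes as members, other backgrounds, runs split at 200 kb, an overlap of 50% and separate summits.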

Additional observations from a re-analysis of the deposited data

How the results depend on the processing

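Of 254 values under the alternatives, 201 moved by no more than 1.5 times (shares of CTCF peaks with MBD3 by no more than their exact interval) and 53 by more. The 0 members occupied changed only with the window of 5 kb, where CTCF was at 4, 3, 2 and 3 members on days 0, 2, 4 and 6. A higher -log10 q, lists of equal length, summits alone and a window of 0 only remove peaks or narrow the search. A count of 0 could not rise under them, so it is no evidence of stability there, and these values are among the 201. With pseudogenes as members the count could have risen, and it stayed 0. The 3 CTCF sites of all 4 days stayed 3 under every alternative that was run on them, of 6 sites in place of 12 at a -log10 q of 10 or more and with lists of equal length. No paired analysis was possible because replicates were pooled in the deposited lists, and for the same reason no replicate could be left out. The causes of the moves below were not tested.

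At a -log10 q of 10 or more, CTCF peaks between members on day 0 fell to 1.43 per Mb and the median distance of members to CTCF on day 0 was 205.1 kb. MBD3 was then at 9.52%, 2.99%, 11.2% and 13.4% of the other chromosome 9 genes on days 0, 2, 4 and 6, its density between other genes was 2.12, 0.470, 2.07 and 3.30 per Mb, and its density between members was 0 on days 0 and 6, as was the share of CTCF peaks in the runs with MBD3. With the lists of each antibody limited to the length of the shortest, day 0 CTCF was at 1.14 per Mb between members and 13.7 per Mb between other genes, with a median distance of 210.1 kb. MBD3 was at 4.67%, 5.32% and 4.67% of the other genes on days 0, 4 and 6, at 1.04, 1.12 and 1.04 per Mb between them, and at 0 between members on days 0 and 6, where the share of CTCF peaks with MBD3 was also 0. With an overlap of 50% of the shorter peak that share was 0 on day 0.

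With another background, other genes no longer than the longest member had CTCF in 28.7% on day 2 and MBD3 in 15.1% and 13.8% on days 0 and 6. Genes with no more promoter CpG than the richest member had MBD3 in 2.79% on day 2 and 14.3% on day 4. Genes within both limits had CTCF in 32.2%, 24.0%, 26.9% and 28.1% and MBD3 in 11.7%, 1.17%, 12.3% and 9.94%. Both CpG limits were chosen after the data were seen. Olfactory receptor genes on other chromosomes had CTCF in 2.45%, 0.918%, 1.73% and 2.04% and MBD3 in 0.510%, 0.102%, 0.102% and 0.306%. All values with pseudogenes as members, runs split at 200 kb, separate summits, summits alone or a window of 0 stayed within these limits.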

Other observations

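The family is not empty of CTCF everywhere. Of the 980 olfactory receptor genes on other chromosomes, 28 had a peak of either antibody within 1 kb on some day, 27 of them of CTCF, and 7 had CTCF on all 4 days. These 7 were chosen after their values were seen. Olfr1373 on chromosome 11 had CTCF folds of 13.3, 6.61, 12.9 and 18.3 on days 0, 2, 4 and 6 at 52143676 to 52144039 (day 6), and MBD3 there on days 0 and 6 with folds of 5.92 and 4.91. Olfr1393, also on chromosome 11, had CTCF folds of 11.1, 7.68, 13.9 and 10.8 and MBD3 on days 0 and 6 with folds of 2.86 and 3.85. Olfr1358 on chromosome 10 had CTCF folds of 7.62, 6.49, 9.13 and 14.6 and MBD3 on day 6 with a fold of 3.85. Olfr304 and Olfr658 on chromosome 7, Olfr15 on chromosome 16 and Olfr1368 on chromosome 13 had CTCF on all 4 days and no MBD3. At Olfr1368 the CTCF peak lay inside the annotated gene on every day, at 21142504 to 21142729 on day 6, with folds of 6.40, 6.17, 6.51 and 6.62. The CTCF peaks of Olfr15, Olfr304, Olfr1358 and Olfr1393 also lay inside the annotated gene on every day.

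Counts of occupied genes varied between chromosomes. The 287 olfactory receptor genes of chromosome 2 had 0 peaks of either antibody in every list, which allows a share of up to 1.05%, while CTCF was at 8 of 239 on chromosome 7 and 4 of 83 on chromosome 11 on day 0. Chromosomes 1 and 4 also had 0, of only 27 and 24 genes, which allows up to 11.1% and 12.5%. Neighbouring genes can share a peak, as Olfr78 and Olfr560 on chromosome 7 did on day 0. Differences between chromosomes were not tested. Olfr631 on chromosome 7 had MBD3 on days 0, 2 and 4, with folds of 4.42, 1.93 and 2.58.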
